A study of Mus musculus with 10 samples.

Results

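The genes described here mark the oligodendrocyte lineage, from its precursor cells to the myelin they later form. They are the 9 genes Olig1, Olig2, Cspg4, Mbp, Mog, Mag, Myrf, Cnp and Bcas1, looked up by symbol among the 8516 genes named in a wild-type (WT) or a knockout (KO) list of m6A peaks, and the symbols of Mag and Myrf occur in neither list. Olig1, Olig2 and Cspg4 were set as precursor genes against Mbp, Mog, Mag, Cnp, Myrf and Bcas1 as myelin genes. The study mapped N6-methyladenosine (m6A) in mRNA of the mouse brain (cortex and hippocampus, postnatal day 5) by pulling down RNA fragments with an antibody against m6A (IP) and comparing them with unselected RNA (input). WT mice gave 3 IP and 3 input libraries. Mettl14 KO mice, in which Cre recombinase driven by Nestin removed Mettl14, gave 2 IP and 2 input libraries. Nestin-Cre acts in neural progenitors and so in neurons, astrocytes and oligodendrocytes, while microglia and most vessel cells lie outside that lineage. The labels name culture medium as well as tissue, so whether RNA came from tissue or from cultured cells is not settled. They do not state whether libraries of a genotype came from separate animals.

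Oligodendrocytes arise from proliferating precursor cells that express the transcription factors OLIG1 and OLIG2 and the NG2 proteoglycan encoded by Cspg4. As these cells leave the cell cycle, MYRF switches on the genes of the myelin sheath, among them those for myelin basic protein (Mbp), the phosphodiesterase Cnp, and the surface proteins MAG and MOG. In rodent cortex, myelination takes place mostly after the first postnatal week. METTL14 is the RNA-binding partner of the methyltransferase METTL3, and m6A on a transcript can change its splicing, translation and decay.

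Each genotype had a single deposited consensus list, so no value here has a replicate error and no difference between genotypes or gene classes has a test over samples. After entries that shared exonic bases were joined, there were 15009 WT peaks in 7717 genes, against 3673 KO peaks in 2879 genes. Mettl14 itself had 1 WT peak, of 180 bases, and no KO peak. The depth of the libraries is unknown. Without an expression level, less methylation of a transcript, less RNA per cell and fewer cells of a type cannot be told apart as reasons why a peak is not listed. Coordinates follow build GRCm38 and count from 1. The p-value given for a peak is the authors' own score, called a p-value here though it may be a q-value. It says how strong that peak was within its list, not how the genotypes differ.

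The WT list held peaks for all 3 precursor genes and for 3 of the 6 myelin genes, beside 34.2% of all RefSeq protein-coding genes. A KO peak was listed for 1 of the 9 genes, beside 12.2% of protein-coding genes. The precursor genes carried 12 WT peaks over 4428 exonic bases, and Mbp, Cnp and Bcas1 carried 4 peaks over 1142 exonic bases. None of these 16 peaks shared an exonic base with a KO peak of its strand, which is called overlapped below, and the only KO peak was in Mog. Mag and Myrf had no peak in either list. Over the whole WT list 12.9% of peaks were overlapped. Of all genes with a WT peak, 20.6% had at least 1 overlapped peak and 27.0% a KO peak anywhere in the gene. A count of 0 of 16 allows a share of up to 18.8%, counting error only, and so does not set these genes apart from that background.

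**Figure D1:**
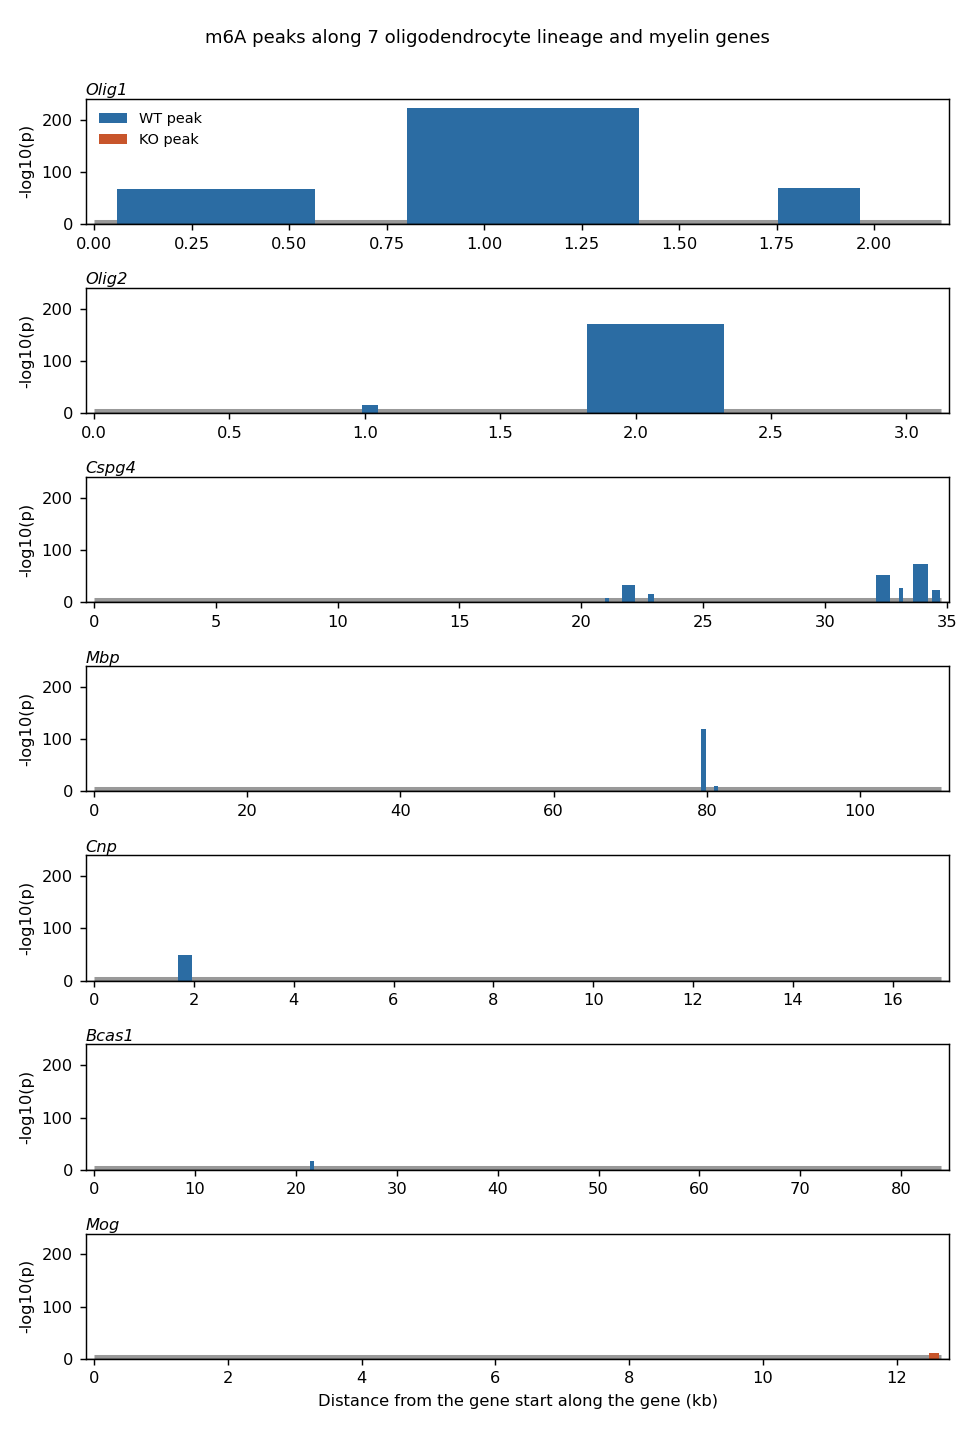
Peaks along the 7 genes with a peak in either list. The horizontal axis is the distance from the gene start in kb, the grey line is the gene's RefSeq span, and the height of each bar is -log10 of the deposited p-value; the narrowest peaks are drawn with a minimum width so that they can be seen. WT peaks (blue) fill much of Olig1 (60.4% of its span), form 2 clusters in Cspg4 and are single or paired in Olig2, Mbp, Cnp and Bcas1, and the only KO peak (orange) lies at the end of Mog.

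Olig1 had the strongest peak of the 9 genes. The gene lies on chromosome 16 from 91269769 to 91271939 on the plus strand and has no intron. Its 3 WT peaks ran from 91269828 to 91270334 (507 bases, p-value 2.5e-67), from 91270572 to 91271166 (595 bases, 1e-222) and from 91271523 to 91271731 (209 bases, 6.3e-69). Of all WT peaks, 9.01% were stronger than the middle one, against 35.5% and 34.9% for its neighbours. Together the 3 peaks covered 1311 bases, 60.4% of the gene, with gaps of 237 and 356 bases between them. They thus began 59 bases after the gene start and ended 208 bases before the gene end. By summed peak length, 7.11% of the genes with a WT peak exceeded Olig1. Of all genes with 3 WT peaks, 33.8% had an overlapped one, and Olig1 had none.

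Olig2, the paralogous factor that specifies the lineage, lies on the same chromosome and strand, 41091 bases before Olig1 (91225550 to 91228677). It had 2 WT peaks of very different strength. The first, from 91226538 to 91226597, was 60 bases wide with a p-value of 1.3e-15, and 0.06% of WT peaks were narrower. The second, from 91227370 to 91227875, was 506 bases wide with a p-value of 1e-170, and 13.3% of WT peaks were stronger. It ended 802 bases before the gene end. Like the strongest Olig1 peak, it lay in the inner part of its gene. The nearest KO peak to any peak of Olig1 or Olig2 was in Paxbp1, 184 kb or more away, so neither gene had a KO peak nearby on either strand. Among genes with 2 WT peaks, 22.7% had an overlapped one.

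Cspg4 carried 7 WT peaks, the most of the 9 genes, and 0.713% of the genes with a WT peak (55 genes) carried more. The gene spans 34767 bases of chromosome 9 (56865104 to 56899870, plus strand). The first 3 peaks lay between 56886094 and 56888069, with widths of 91, 540 and 211 bases and p-values of 6.5e-09, 1e-34 and 7.9e-16. After 9137 bases without a peak, the other 4 followed between 56897207 and 56899840, with widths of 569, 151, 629 and 360 bases and p-values of 5e-53, 2.5e-27, 1.6e-73 and 3.2e-24. The cluster at the gene end was thus the stronger, and its last peak stopped 30 bases before the gene end. Summed peak length was 2551 bases, exceeded by 0.92% of the genes with a WT peak. No KO peak lay in the gene. Of the 45 genes with exactly 7 WT peaks, Cspg4 included, 57.8% had at least 1 overlapped peak (Wilson 95% interval 43.3 to 71.0). NG2 is also made by pericytes of vessels, and mural and endothelial markers had a WT peak in 6 of 9 genes, Pdgfrb with a single one among them, so Cspg4 RNA of precursor and of mural cells cannot be told apart here.

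Mbp had the strongest and widest peak among the myelin genes. Its RefSeq span on chromosome 18 (82475091 to 82585637, plus strand) starts at the distant promoter of the golli transcripts, and both WT peaks lay far from that start. Whether golli or other Mbp transcripts carried the peaks was not tested, so these distances are not positions within a myelin transcript. The first ran from 82554364 to 82554934, 79273 bases after the start of the span, with 571 bases and a p-value of 1e-119, and 20.2% of WT peaks were stronger. The second, from 82556073 to 82556193, had 121 bases and a p-value of 2.5e-11, and 86.9% of WT peaks were stronger. No peak lay in the 29444 bases between it and the gene end. Mbp thus resembled Olig2 in holding a wide, strong peak beside a narrow, weak one.

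Cnp and Bcas1 had 1 WT peak each. The Cnp peak, on chromosome 11 from 100576594 to 100576862 on the plus strand, had 269 bases and a p-value of 1.3e-49, close to the middle of the WT list (44.5% of peaks stronger). It lay 1685 bases after the gene start. The span of Cnp overlaps the end of Dnajc7 on the other strand, and the KO peak nearest to the Cnp peak, 7705 bases away, belonged to Dnajc7. Bcas1, a gene of newly formed and early myelinating oligodendrocytes, had a peak on the minus strand of chromosome 2, from 170406294 to 170406474, 181 bases wide with a p-value of 7.9e-18, and 74.7% of WT peaks were stronger. Genes with a single WT peak made up 50.4% of all genes with one, and 10.5% of them had it overlapped.

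Mog, the gene for a glycoprotein on the outer surface of myelin, had the reverse pattern, with no WT peak and 1 KO peak. The KO peak lay on the minus strand of chromosome 17, from 37010770 to 37010920, was 151 bases wide and had a p-value of 2.5e-11, a value that 22 KO peaks shared. It was among the weaker KO peaks, with 69.9% of the list stronger, and ended 30 bases before the gene end. The zinc finger gene Zfp57, which guards imprinted loci, runs towards Mog on the plus strand, and 10 bases separate the ends of the 2 genes. Zfp57 had a WT peak of 449 bases, listed with a p-value of 0, that reached its gene end and lay 40 bases from the position of the Mog peak, and a KO peak of 61 bases that lay 189 bases from it. The library kit was stranded per the labels, but no source states whether strand was used in counting, and a part of Zfp57 in the Mog peak was not tested. Of all KO peaks 57.1% lay over a WT peak, and 27.8% of the genes with a KO peak had no WT peak. Being listed in KO alone was thus common among genes with a KO peak, while over all protein-coding genes the share was 2.92%.

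**Figure D2:**
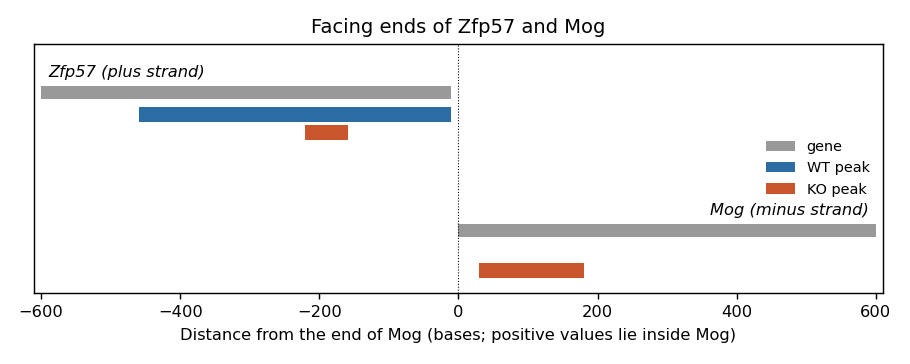
The facing ends of Zfp57 and Mog. The horizontal axis is the distance in bases from the end of Mog, with positive values inside Mog; grey bars are genes, blue bars WT peaks and orange bars KO peaks. The KO peak of Mog lies 40 bases beyond the WT peak of Zfp57, on the other strand.

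The precursor genes had more WT peaks per gene than the myelin genes, while the strengths and widths of their peaks overlapped. The precursor genes had 2, 3 and 7 peaks, and the myelin genes 0 to 2. Peaks of precursor genes had a median width of 433 bases (60 to 629) and those of myelin genes of 225 bases (121 to 571), and the median over all WT peaks was 208 bases. By strength, the median precursor peak had 49.1% of the WT list above it and the median myelin peak 59.6%. With Myrf and Bcas1 left out of the myelin class, the myelin value was 44.5%, and the order of the 2 classes reversed. The strongest 20% of WT peaks held 2 of the 12 precursor peaks, the wide ones of Olig1 and Olig2, and none of the 4 myelin peaks. By their midpoints, 3 of the 12 precursor peaks lay within 1000 bases of the gene end, 1 of Olig1 and 2 of Cspg4, and none of the 4 myelin peaks did, against 15.9% of all WT peaks that could be placed. No peak of either class had its midpoint within 200 bases of the gene start. With 3 and 6 genes from the same libraries, these differences have no test.

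All 16 WT peaks lay on a single exonic block, a kind that was seldom overlapped by a KO peak. Of all WT peaks, 76.5% lay on 1 block, and 7.97% of these were overlapped. The WT list was cut by strength into 5 classes of equal size. Among single-block peaks the overlapped share was 18.8% in the strongest class, which held the widest peaks of Olig1 and Olig2. It was 8.43% in the next, which held the Mbp peak of 571 bases, the outer Olig1 peaks and the Cspg4 peak of 629 bases. In the remaining classes, which held the other 10 peaks, it was 5.85%, 4.82% and 3.12%. The count of 0 among 16 thus stands beside a low share of single-block peaks in general.

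**Figure D3:**
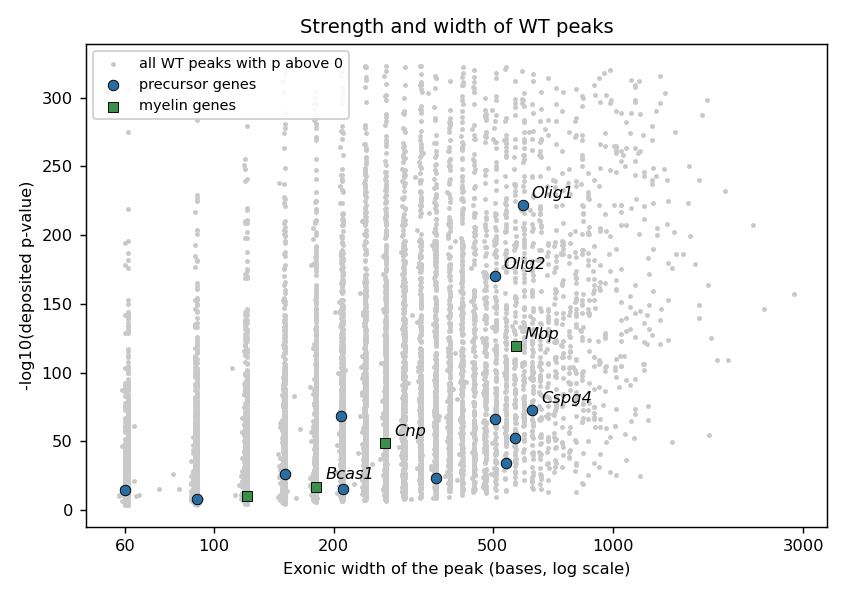
Width and strength of WT peaks. The horizontal axis is exonic width in bases on a log scale and the vertical axis -log10 of the deposited p-value; grey points are all WT peaks with a p-value above 0 (764 listed at 0 are left out), blue circles the 12 precursor peaks and green squares the 4 myelin peaks, with the strongest peak of each gene named. The wide peaks of Olig1, Olig2 and Mbp stand highest, and the other peaks of both classes mix in the lower part of the plot.

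Longer lists of precursor and of myelin genes showed a wide gap in how many had a WT peak. Of 30 other precursor markers and regulators, 22 had a WT peak (73.3%), and of 40 other genes of myelin structure and myelin lipids, 4 had one (10%). Over all RefSeq protein-coding genes the share was 34.2% for the WT list and 12.2% for the KO list. These shares are not corrected for expression, and 34 of the 40 myelin genes had no peak in either list. Both sets of genes were chosen with earlier results of these data known. The gap is therefore not independent support for the contrast among the members. The 4 myelin genes with a WT peak were Nfasc (3 peaks), Cntn2 (2), Sirt2 (1) and Omg (1). Of these, Nfasc and Cntn2 encode adhesion proteins that neurons also make, and Omg, for a myelin glycoprotein, is expressed in neurons too. Precursor list genes with a WT peak were not all restricted to the lineage either. Among them were Lingo1, Zeb2 and Sox5, which cortical neurons also express. The gap therefore does not compare precursor with myelinating cells alone.

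The precursor list was led by Chd7, a chromatin remodeler, and Sox8, a SOX factor related to Sox10, with 5 WT peaks each and none in the KO list. Lingo1, an inhibitor of differentiation that neurons also express, Cacng4 and the phosphatase gene Ptprz1 had 3 WT peaks each. Among defining markers of the lineage, Pdgfra, the receptor that drives precursor division, had 3 WT peaks, 1 of them listed with a p-value of 0, and no KO peak. Sox10, the factor that keeps lineage identity, had 1 WT peak of 806 exonic bases on 3 blocks, with a p-value of 3.2e-29, and no KO peak.

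A WT peak overlapped by a KO peak was found in 5 of the 22 precursor list genes, 22.7% against 20.6% of all genes with a WT peak. They were Lingo1, Cacng4, Zeb2, Sox5 and Id4, with 1 overlapped peak each. In each of the 5 the summed KO length was the shorter, from 2389 to 180 bases in Lingo1, 1438 to 240 in Cacng4, 690 to 241 in Zeb2, 300 to 91 in Sox5 and 269 to 210 in Id4. The WT sums include peaks without overlap, and a shorter KO sum was general, found in 1496 of 1586 genes with an overlapped peak and a KO peak under the same name (94.3%). These genes are not restricted to the lineage, since Zeb2, Sox5 and Lingo1 are also expressed in cortical neurons and Id4 in neural progenitors and astrocytes. Lhfpl3 had a KO peak just before its WT peak, ending at base 22746174 of chromosome 5, while the WT peak began at 22746294. Tcf7l2, a Wnt effector of differentiating oligodendrocytes, had a KO peak of 209 bases and no WT peak.

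In the myelin list, Nfasc had the only overlapped peak and 2 KO peaks. Ugt8a, for the enzyme that makes galactosylceramide, had no WT peak and 1 KO peak of 90 bases on chromosome 3 from 125866646 to 125866735, with a p-value of 3.2e-13 that 70 KO peaks shared. Members included, 3 of 46 myelin genes were listed in KO alone, against 2.92% of protein-coding genes (639 of 21900).

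Markers of other cell types were present in the WT list as well. Neuron markers had a WT peak in 7 of 10 genes, and all 7 had an overlapped peak, with Elavl3 (2 of 5 peaks) and Map2 (2 of 4) holding the most WT peaks. The median neuron marker peak had 12.1% of the WT list above it, against 49.1% for precursor and 59.6% for myelin members. Strong peaks were overlapped more often, and these lists are not matched for strength or number of blocks. Astrocyte markers had a WT peak in 8 of 10 genes and an overlapped one in 3. Of the 4 astrocyte genes with 2 WT peaks, Slc1a3 and Sox9 had 1 overlapped each, Gfap had no KO peak, and Slc1a2 had a KO peak elsewhere in the gene. Mural and endothelial markers had a WT peak in 6 of 9 and an overlapped one in 1, Cdh5 (2 of 3 peaks), while Kcnj8 had none of 2. Microglia markers had a WT peak in 5 of 8 and an overlapped one in 2, with 1 of 2 peaks overlapped in Cx3cr1 and none of 2 in C1qa. Schwann cell markers, which central tissue should lack, had a WT peak in 2 of 4 genes, Prx and Egr2, and none overlapped. Their peaks were weak, with a median of 91.4% of the WT list stronger. Egr2 is also an activity gene of cortical neurons. The 6 members with a WT peak had none overlapped, and a count of 0 of 6 allows, by a rough rule, a share of up to 50%. Shares in the lists of other cell types ran from 0% to 100%, over 2 to 8 genes with a WT peak each. Apart from the neuron list, with 7 of 7, these counts are too small to place the members against the lists. The neuron list is not matched to the members in strength or number of blocks. Differences between the lists were not tested.

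**Figure D4:**
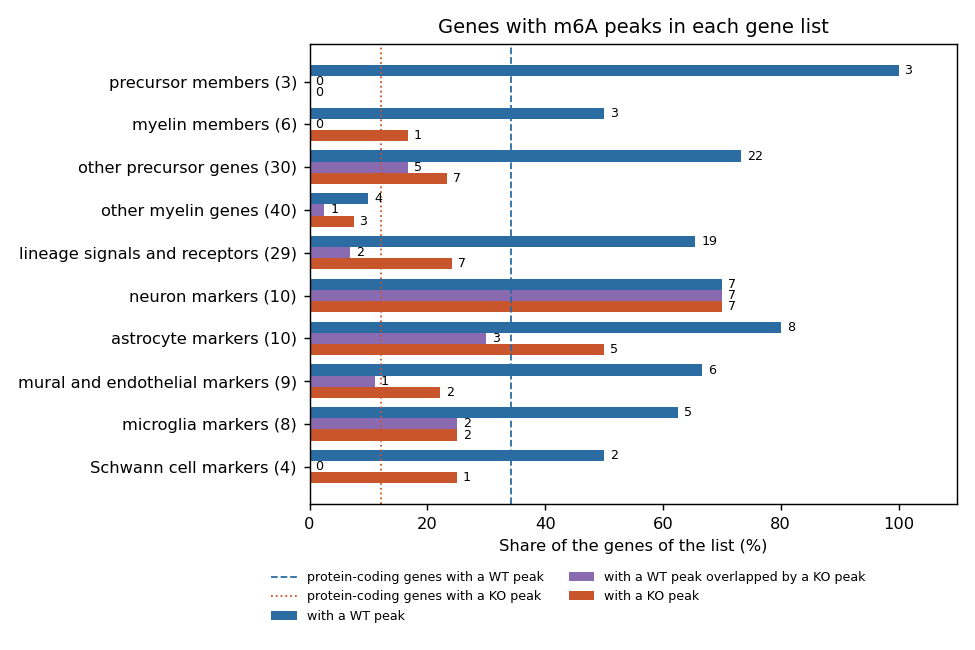
Genes with peaks in each gene list. The horizontal axis is the share of the list's genes in percent, the number in brackets is the list's size and the number at each bar its count of genes; bars show genes with a WT peak (blue), with a WT peak overlapped by a KO peak (purple) and with a KO peak (orange), and the lines mark all protein-coding genes (34.2% for WT, 12.2% for KO). The precursor genes (3 of 3 and 22 of 30) and the myelin members (3 of 6) stand above the WT line, and the other myelin genes below it with 4 of 40.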

How the data were processed

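The data are 2 consensus peak lists, 1 for WT and 1 for KO, from 10 libraries. STAR and GRCm38 are named per the submitters' processing notes. The caller, its thresholds and the way libraries were pooled are not stated. The deposited score was read as a p-value or q-value from its range (0 to 1.5e-04), without a statement of which. Entries of a list sharing an exonic base on the same strand were merged (15091 to 15009 in WT, 3733 to 3673 in KO). A WT peak counted as overlapped when it shared at least 1 exonic base with a KO peak of its strand. The overlap code was tested on simulated intervals. RefSeq (GRCm38.p6) gave gene spans, biotypes and synonyms, and distances run from the midpoint or edge of a peak's genomic span. Intervals are Wilson 95% intervals over peaks or genes, which are not replicates. Upper limits for a count of 0 were instead taken as 3 counts over the number of peaks or genes. This rough rule runs high for a number as small as 6. Members and lists were chosen with earlier results of these data known. The named genes are the 9 members, Mettl14 and, in each lineage list, the 5 with the highest number of WT peaks (ties by summed exonic length) and every gene with a KO peak, with up to 2 genes in each other list. The defining markers Pdgfra and Sox10, 2 more astrocyte genes, and genes neighbouring a member peak, were named beyond this. A gene taken by this rule is not reported here. Sequences of the peaks were not used here, since no genome was given. Python 3.11.15, pandas 2.3.3 and SciPy 1.17.1 were used.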

Additional observations from a re-analysis of the deposited data

How the results depend on the processing

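No paired analysis was possible because each genotype has 1 consensus list without library values, which also barred leaving out replicates. Of 117 values under the alternatives, 93 stayed within 1.5 times the main value or, for shares, within their interval. Many of the 93 could not move, since settings of overlap, gap and strand do not act on counts, widths or places of WT peaks. The 93 are therefore no measure of stability. The number of member WT peaks overlapped by a KO peak was 0 under each of the 8 alternatives of overlap, strand, peak shape, merging and list length. It could not come out otherwise, since the KO peak nearest to any member WT peak, on either strand, lay 7705 bases away. With the stronger 50% of each list, the members kept 8 WT peaks (6 precursor, 2 myelin, the latter with a median width of 420 bases) and 0 KO peaks in 0 genes, so the Mog peak drops out. With the WT list cut to as many peaks as the KO list, 3 members held 3 WT peaks, 0 of them near the gene end. The 2 precursor peaks then had a median width of 550.5 bases and the 1 myelin peak 571 bases, so the order of the widths reversed. In this setting 18 of the 99 lineage genes beyond the members held a WT peak, against 45 before. With a window of 2000 bases, 7 member peaks lay near the gene end. With at least 50% of the WT peak covered, or 50% of both peaks shared, lineage genes with an overlapped peak went from 8 to 4 and 3. In these 2 settings the share of all WT peaks overlapped was 6.83% and 6.26%, and that of genes 11.7% and 10.9%. The shares were 14.1% and 19.3% with the stronger 50% of each list, and 28.6% and 34.3% with the shortened WT list. The cause of these moves was not tested. Depth, which is unknown, limits what a missing peak can show.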

Other observations

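Signals and receptors that act on the lineage had a WT peak in 19 of 29 genes, and 2 of these, Thra and Fyn, had an overlapped peak (10.5%, against 20.6% of all genes with a WT peak). Thra, which encodes a nuclear receptor for thyroid hormone, a signal for precursor differentiation, had 5 WT peaks. One of them, on chromosome 11 from 98753514 to 98756132, started at the same base as a KO peak, which ran to 98756162. Fyn, a kinase of the Src family that acts in early myelination, had 2 WT peaks, and both of its KO peaks lay over the first, which spans 4 exonic blocks. Axin2, a feedback inhibitor of Wnt signalling, had 4 WT peaks, and the receptor genes Rxra and Thrb had 3 each, all without a KO peak in the gene. S1pr5, a sphingosine phosphate receptor of oligodendrocytes, had 1 WT peak of 535 bases near its gene end and 1 KO peak of 60 bases elsewhere in the gene.

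In this list 4 genes had a KO peak and no WT peak, namely Erbb3, Jag1, Cxcr4 and Lif, beside 2.92% of protein-coding genes. The longest of these was the Lif peak of 390 bases, with a p-value of 1e-29, on chromosome 11 from 4269821 to 4270210. The Jag1 peak, in the gene of a Notch ligand that holds precursors undifferentiated, had 181 bases and a p-value of 7.9e-25. Those of Erbb3, a neuregulin receptor, and the chemokine receptor Cxcr4 had 151 and 150 bases and p-values of 5e-12 and 9.3e-10.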
